A study of Rattus norvegicus with 6 samples.

Results

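The genes described here encode the mitochondrial ribosomal proteins, taken as every gene of the deposited tables whose name starts with Mrpl or Mrps followed by a digit, in capital or small initial letters, with names that contain -ps left out. The rule found 74 of 23139 listed genes, 45 with an Mrpl and 29 with an Mrps name, and no name was left out for containing -ps. Of these, 71 are written with a capital initial and 3 (mrpl9, mrpl11 and mrpl24) with a small one. Primary microglia were obtained from cortices of P1 (postnatal day 1) Wistar rats, shaken off the mixed cultures and purified with magnetic beads against CD11b/c. From the next day on, both conditions received 100 ng/mL lipopolysaccharide (LPS), a component of the bacterial cell wall that activates microglia. The LPS cells received DMSO, the solvent of the drug, and the LPS/siponimod cells 50 µM siponimod, a modulator of sphingosine 1-phosphate receptors. Each condition was sequenced as mRNA in 3 biological replicates, and libraries of unstimulated cells or of siponimod alone were not analysed here, so that every value below sets LPS/siponimod against LPS.

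Mitochondrial ribosomes (mitoribosomes) translate the few mRNAs that mitochondrial DNA encodes, which code for core subunits of the respiratory chain and of the ATP synthase. Their RNA comes from mitochondrial DNA, whereas all their proteins are encoded in the nucleus, made by cytosolic ribosomes and imported. The large subunit joins amino acids, the small subunit reads the mRNA, and many mitoribosomal proteins have a counterpart in bacteria while others are found in mitochondria alone. In macrophages and microglia, activation by LPS is known to move energy metabolism from respiration towards glycolysis.

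Of the 74 genes, 47 belong to the large subunit, among them Mrps30 and Mrps18a despite their names, and 26 to the small subunit. The remaining gene, Mrps36, carries a ribosomal name but encodes a subunit of the 2-oxoglutarate dehydrogenase complex. By descent, 44 were classed as shared with bacteria and 29 as specific to mitochondria. The latter class includes Mrps18a and Mrps18b, although both are related to the bacterial protein S18. Of 78 subunit symbols written from general knowledge, 73 had a row, and Mrpl33, Mrpl34, Mrpl50, Mrpl52 and Mrpl53 were not analysed here.

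In the order of the replicate numbers, which holds for all values below, the LPS libraries held 39484979, 38301365 and 38080379 counts and the LPS/siponimod libraries 46643859, 43336006 and 38857441. The 74 genes together took 0.1441%, 0.1631% and 0.1630% of all counts in LPS cells, against 0.1501%, 0.1523% and 0.1547% in LPS/siponimod cells. These ranges overlap. Filtering on low counts left 11977 genes for testing and with them 73 of the 74. The gene that failed the filter, Mrpl42_2, had a single count in LPS replicate 3 and 0 in the other libraries, which is under the floor of 3 counts. The tables give Mrpl42 as 2 entries, Mrpl42_1 and Mrpl42_2, and how reads were divided between them is not stated, so that the level of Mrpl42_1 is uncertain.

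The label of the cells was checked first. All 11 microglia markers examined had a mean above 1 CPM (CPM being counts scaled to the library size by the TMM method). Over all libraries, the highest mean was that of Csf1r, the receptor that microglia need to survive. Within LPS/siponimod cells, Cd68 had the highest mean (1076 CPM, against 811 CPM for Csf1r). The summed level of the 11 markers was 7757, 6595 and 4570 CPM with LPS and 3968, 4777 and 3158 CPM with LPS/siponimod. The microglial markers Aif1 (log2 FC -1.88, adjusted p = 0.0212), Cx3cr1 (-3.65, adjusted p = 0.0392) and Itgam (-0.87, adjusted p = 0.0112 in edgeR's quasi-likelihood test) were themselves lower with siponimod. In bulk RNA, fewer cells of a type and less RNA per cell cannot be told apart.

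Both replicates numbered 3 stood apart from the other libraries by markers of the oligodendrocyte lineage, LPS replicate 3 the most. Olig1, a transcription factor of that lineage, was at 0.0270, 0.130 and 13.9 CPM in the LPS libraries and at 0.0430, 0.0672 and 0.414 CPM with LPS/siponimod. Pdgfra, a receptor of oligodendrocyte precursors, had 5, 4 and 284 counts in LPS cells, against 1, 4 and 81 in LPS/siponimod cells. Olig2 had 1, 2 and 240 counts in LPS cells, against 1, 3 and 40 in LPS/siponimod cells, and Sox10 0, 3 and 96 against 0, 3 and 15. Over the 7 markers of this lineage the sums were 5.05, 5.29 and 33.8 CPM with LPS and 11.4, 10.3 and 21.2 CPM with LPS/siponimod. Mbp had the highest mean over all libraries, and Mog was at or near 0 everywhere. Within LPS cells, Olig1 had a higher mean than Mbp through replicate 3 (4.67 against 3.49 CPM). Mbp, a myelin protein gene, was itself higher with LPS/siponimod, at 4.02, 4.18 and 2.26 CPM with LPS and at 10.1, 8.89 and 15.9 CPM with LPS/siponimod (adjusted p = 0.0172, edgeR quasi-likelihood test, and 0.0623 without LPS replicate 2). The 5 neuronal markers summed to 1.67, 1.04 and 11.3 CPM with LPS and to 4.37, 5.85 and 15.1 CPM with LPS/siponimod, led by Tubb3, and were highest within each condition in replicate 3. Tubb3, a neuronal tubulin gene, was at 1.65, 0.908 and 6.43 CPM with LPS and at 4.35, 5.73 and 11.7 CPM with LPS/siponimod, higher in all 3 pairs of replicate numbers, and did not pass the test without the block (adjusted p = 0.251 without and 0.0316 with the replicate number as a block). Astrocyte markers (6 genes, led by Slc1a3) summed to 42.4, 20.9 and 19.4 CPM with LPS and to 27.4, 26.7 and 57.1 CPM with LPS/siponimod. Gfap of this list ran differently from the sum, with 1, 2 and 88 counts in LPS cells, against 0, 0 and 1 in LPS/siponimod cells. By this astrocyte gene, too, LPS replicate 3 stood apart. The 5 markers of fibroblasts and endothelium with a row, led by Pecam1, summed to 41.1, 108 and 22.8 CPM with LPS and to 15.3, 23.9 and 14.5 CPM with LPS/siponimod. Pecam1 did not pass the test (adjusted p = 0.0785, and 0.00966 with the replicate number as a block), whereas Dcn, a fibroblast gene, was higher, with 3, 0 and 4 counts in LPS cells, against 456, 49 and 178 in LPS/siponimod cells (adjusted p = 0.0155, and 0.0688 without LPS/siponimod replicate 1). The other fibroblast genes did not follow Dcn. Col1a1 was at 3.05, 2.98 and 2.39 CPM with LPS and at 1.33, 1.37 and 1.85 CPM with LPS/siponimod. It was thus lower without overlap, but did not pass the test (adjusted p = 0.0526, edgeR quasi-likelihood test). Col1a2 had overlapping groups (adjusted p = 0.777), and Lum had at most 4 counts in any library. The part of other cell types in the results below was not tested, and counts are therefore also given without LPS replicate 3 and without both replicates numbered 3.

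More of the family was lower than higher with LPS/siponimod, and most changes were small. Differentially expressed genes (DEGs) were genes that passed an adjusted p of 0.05 in edgeR's quasi-likelihood test with a fold change of 1.5 or more. Of the 73 genes tested, 13 were DEGs with lower levels (17.8%), against 11.7% of all 11977 genes, and 2 were DEGs with higher levels (2.74%), against 13.6% of all genes. Past the adjusted p at any fold, 15 were lower and 2 higher, against 13.2% and 15.3% of all genes, and 56 did not pass the test. A log2 FC below 0 was found for 54 of the 73 (73.97%), against 51.2% of all genes. The median log2 FC of the family was -0.22, from -0.43 at the first quartile to 0.02 at the third, against a median of -0.02 and quartiles of -0.53 and 0.49 for all genes. Within 1.25-fold of no change lay 44 of the 73 genes, against 4113 of all 11977, and past 2-fold 5, against 3101. The median SE of a log2 FC was 0.15 in the family and 0.23 over all genes. Values of the 3 libraries of each condition did not overlap for 30 genes that were lower and 7 that were higher with LPS/siponimod, against 24.0% and 25.3% of all genes.

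**Figure D1:**
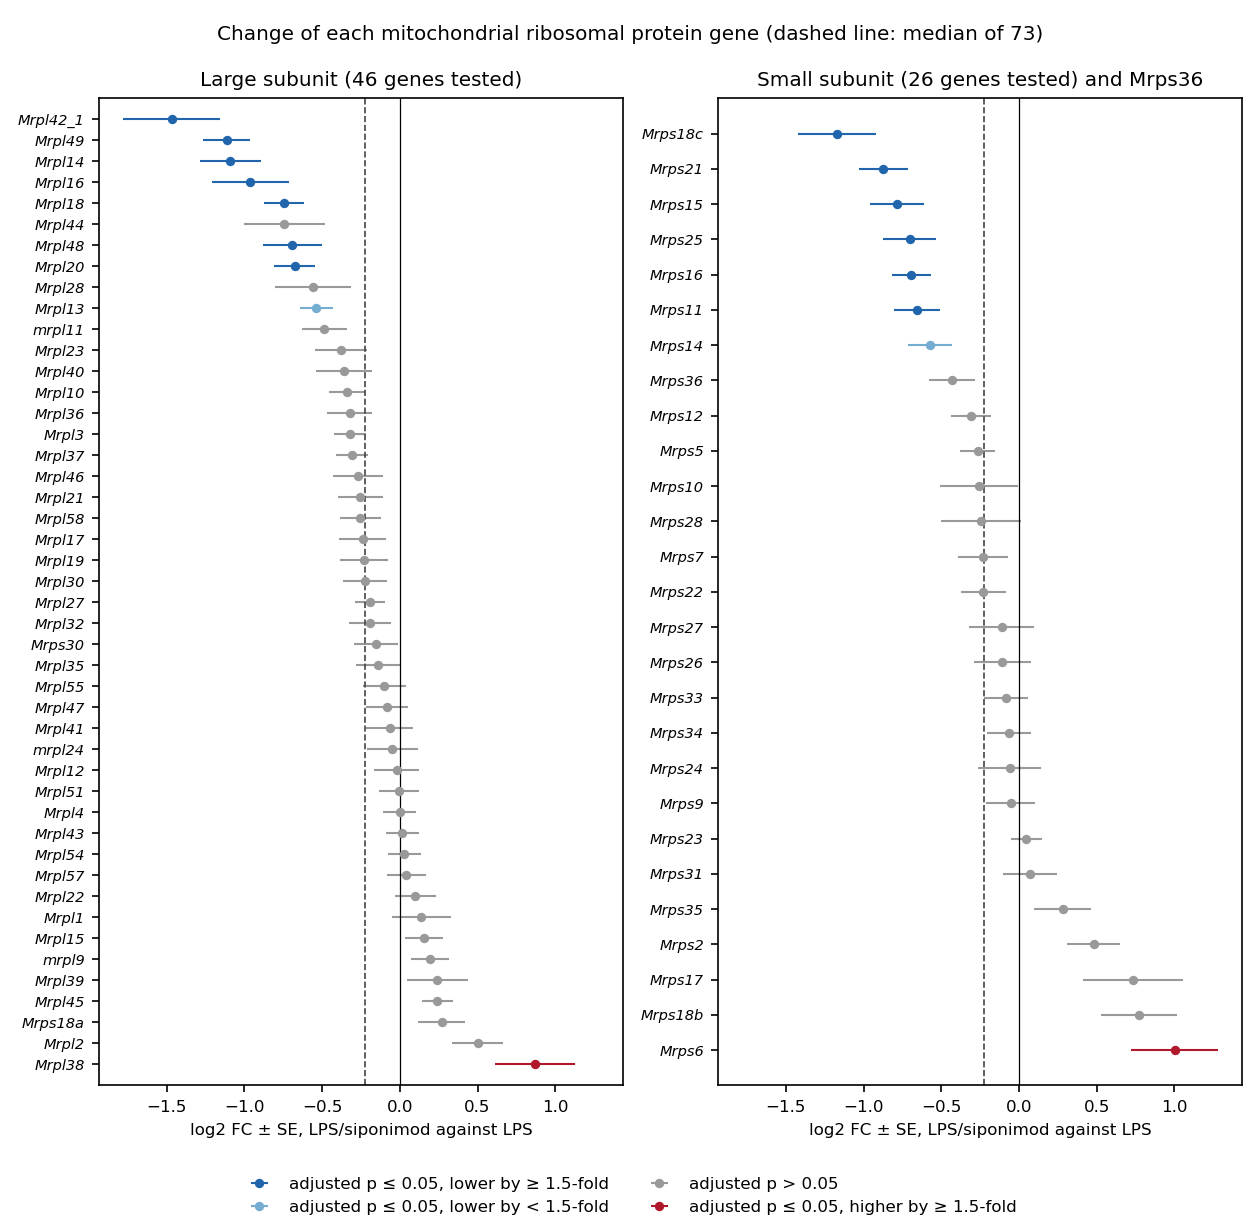
Log2 FC of LPS/siponimod against LPS (x axis) for each mitochondrial ribosomal protein gene (y axis), sorted by size, with the large subunit on the left and the small subunit with Mrps36 on the right. Points are log2 FC, bars the standard error (SE), colours the outcome of the edgeR quasi-likelihood test, and the dashed line is the median of -0.22. The genes form a continuous range from -1.47 to 1.00 with most values left of 0.

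The number of calls depended on single libraries. Without LPS replicate 2, 1 gene was a DEG, without LPS/siponimod replicate 1 also 1, in both fits Mrpl49, and without LPS/siponimod replicate 3 there were 2, all lower. Of all genes tested in these fits, DEGs with lower and higher levels made up 1.44% and 3.72% (without LPS replicate 2), 1.52% and 4.70% (LPS/siponimod replicate 1) and 2.24% and 6.26% (LPS/siponimod replicate 3). Without LPS replicate 1, 9 were lower and 0 higher, against 5.13% and 8.75% of all genes, and without LPS/siponimod replicate 2, 14 were lower and 1 higher, against 11.6% and 11.8%. Without LPS replicate 3, the library with the most oligodendrocyte lineage markers, 14 were lower and 4 higher, against 14.5% and 15.9%, and the median log2 FC was -0.12. Without both replicates numbered 3, 7 were lower and 1 higher, against 8.17% and 11.1% of all genes, and the median was -0.11. All 17 genes called at any fold kept their direction there, and 6 of them kept their call. Of the 17 genes called at any fold, all 17 also kept their direction in each of the 13 other fits, and 1, Mrpl49, kept its call in each of them. The other 16 lost it without LPS replicate 2 and without LPS/siponimod replicate 1, and their highest adjusted p with 1 library left out lay between 0.0619 (Mrpl18) and 0.164 (Mrpl38).

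Within the pairs of libraries with the same replicate number, the median difference of the family was -0.06, -0.15 and -0.32 on the log2 scale in pairs 1, 2 and 3. In all 3 pairs, 34 genes were lower and 14 higher with LPS/siponimod, against 35.4% of all genes in either direction. With the replicate number as a block, 17 genes were lower and 4 higher at an adjusted p of at most 0.05, against 18.9% and 20.0% of all genes in that fit, and 14 and 3 of them were DEGs, against 16.4% and 17.7%. These 21 hold all 17 genes called without the block, and add mrpl11 and Mrpl44 among the lower and Mrps18b and Mrpl2 among the higher genes.

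Among the large subunit genes, 7 were DEGs with lower and 1 with higher levels, of 46 tested (15.2% and 2.17%, against 11.7% and 13.6% of all genes), and the median log2 FC was -0.21. Among the small subunit genes, 6 were lower and 1 higher, of 26 tested (23.1% and 3.85%), with a median of -0.17. The difference between the subunits was not tested. Summed over its genes, the large subunit was at 1078, 1128 and 1160 CPM with LPS and at 989, 993 and 937 CPM with LPS/siponimod, without overlap. The small subunit summed to 447, 481 and 497 CPM with LPS and to 510, 477 and 520 CPM with LPS/siponimod. These sums overlap. Both statements depend on the scaling. As CPM of the plain library totals, without the TMM factors, the large subunit was at 1012, 1135 and 1133 in LPS cells, against 985, 1022 and 990 in LPS/siponimod cells, and these values overlap. The small subunit was then at 419, 484 and 485 in LPS cells, against 508, 491 and 549 in LPS/siponimod cells, without overlap. The gene that adds most to the small subunit sums in LPS/siponimod cells is Mrps6, which is described below. Of 44 genes shared with bacteria, 9 were DEGs with lower and 1 with higher levels (20.5% and 2.27%, median log2 FC -0.24, 36 below 0). Of 28 mitochondria-specific genes tested, 4 were lower and 1 higher (14.3% and 3.57%, median -0.08, 17 below 0), and this difference was not tested either. The shares of lower DEGs in the large subunit and among mitochondria-specific genes were thus near that of all genes. In the fits that follow, lower and higher DEGs are counted together, and the shares over all genes are those given above for each fit. Without LPS replicate 2 or LPS/siponimod replicate 1, DEGs numbered 1 in the large and 0 in the small subunit, and without LPS/siponimod replicate 3, 1 in each. Without LPS replicate 1 the large subunit had 4, against 5.13% lower and 8.75% higher of all genes. Without LPS replicate 3 the large subunit had 10 and the small subunit 8, against 14.5% and 15.9% of all genes. Without both replicates numbered 3, they had 5 and 3, and 4 genes shared with bacteria and 4 mitochondria-specific genes were DEGs. Of the genes shared with bacteria, 0, 0 and 1 were DEGs without LPS replicate 2, LPS/siponimod replicate 1 and LPS/siponimod replicate 3, and 1 mitochondria-specific gene was called in each of these fits.

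The lowest p-value of the family belonged to Mrpl49, a mitochondria-specific protein of the large subunit. Its level was 61.0, 61.1 and 77.1 CPM with LPS and 26.96, 34.4 and 30.7 CPM with LPS/siponimod. Every LPS library was above every LPS/siponimod library, with LPS replicate 3 the highest. The mean decreased from 66.4 ± 9.25 to 30.7 ± 3.71 CPM (SD, n = 3 each), a log2 FC of -1.11 (SE 0.15, adjusted p = 0.00797, edgeR quasi-likelihood test). With 1 library left out, its adjusted p reached at most 0.0421.

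Mrpl18 encodes a protein of the central protuberance of the large subunit and was at 22.2, 20.1 and 20.6 CPM with LPS and at 11.4, 13.4 and 12.6 CPM with LPS/siponimod. The groups were well separated, and the log2 FC was -0.75 (SE 0.13, adjusted p = 0.0130, edgeR quasi-likelihood test). Mrps16, a small subunit protein with a bacterial counterpart, was at 19.1, 20.9 and 20.2 CPM with LPS and at 12.1, 13.2 and 11.96 CPM with LPS/siponimod, again without overlap (log2 FC -0.69, SE 0.12, adjusted p = 0.0136).

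To show the start regions of the genes the results turn on, the promoters of these 3 genes are given with those of Mrps6, the called gene with the lowest p-value among the higher ones, and of Mrpl12, a gene of the ribosomal stalk with a log2 FC near 0. The sequences are from RefSeq, build GRCr8, 5′ to 3′ along the gene's own strand, from 250 bases before to 50 bases after the start site. Capitals mark matches on either strand to the motifs spelled out below, a match on the opposite strand being seen as its reverse complement (ATTGG for CCAAT).
Mrpl49 promoter (GRCr8, chr1:212779278-212779577, minus strand): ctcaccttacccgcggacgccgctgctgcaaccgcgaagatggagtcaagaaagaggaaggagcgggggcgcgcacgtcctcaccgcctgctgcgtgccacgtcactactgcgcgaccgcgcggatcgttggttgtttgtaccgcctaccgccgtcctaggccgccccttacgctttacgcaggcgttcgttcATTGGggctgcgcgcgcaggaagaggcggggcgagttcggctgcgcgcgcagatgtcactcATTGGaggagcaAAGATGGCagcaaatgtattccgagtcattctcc
Mrpl18 promoter (GRCr8, chr1:50384702-50385001, plus strand): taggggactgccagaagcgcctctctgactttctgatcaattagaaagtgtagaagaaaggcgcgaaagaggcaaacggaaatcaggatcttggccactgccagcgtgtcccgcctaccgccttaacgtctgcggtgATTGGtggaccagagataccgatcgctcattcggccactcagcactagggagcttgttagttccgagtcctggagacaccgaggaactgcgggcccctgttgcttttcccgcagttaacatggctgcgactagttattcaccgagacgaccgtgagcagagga
Mrps16 promoter (GRCr8, chr15:3967559-3967858, plus strand): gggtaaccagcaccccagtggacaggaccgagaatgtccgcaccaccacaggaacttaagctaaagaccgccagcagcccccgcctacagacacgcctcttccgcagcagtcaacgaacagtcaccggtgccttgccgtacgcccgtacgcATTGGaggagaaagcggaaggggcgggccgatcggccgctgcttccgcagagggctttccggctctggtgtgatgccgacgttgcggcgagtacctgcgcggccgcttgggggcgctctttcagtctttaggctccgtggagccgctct
Mrps6 promoter (GRCr8, chr11:44778417-44778716, plus strand): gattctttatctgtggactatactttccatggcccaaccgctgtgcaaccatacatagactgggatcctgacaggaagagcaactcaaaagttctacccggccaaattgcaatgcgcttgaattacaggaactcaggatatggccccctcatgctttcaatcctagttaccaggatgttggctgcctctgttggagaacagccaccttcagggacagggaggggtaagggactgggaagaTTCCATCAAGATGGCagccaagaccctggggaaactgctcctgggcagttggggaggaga
Mrpl12 promoter (GRCr8, chr10:106256496-106256795, plus strand): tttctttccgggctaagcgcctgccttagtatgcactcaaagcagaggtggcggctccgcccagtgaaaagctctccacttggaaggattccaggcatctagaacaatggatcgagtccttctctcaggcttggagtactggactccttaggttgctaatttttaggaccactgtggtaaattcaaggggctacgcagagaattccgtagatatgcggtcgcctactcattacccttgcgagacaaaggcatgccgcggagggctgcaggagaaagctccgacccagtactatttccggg

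The motifs, chosen after expression values had been seen, were GCATGCGC (bound by NRF1), CCGGAAGT (GABPA), AAGATGGC (YY1), CCAAT (the CCAAT box) and TGATGNAA (C/EBP-ATF element), searched on both strands, where matches may overlap. NRF1, GABPA and YY1 are transcription factors known for driving nuclear genes of mitochondrial proteins, and C/EBP-ATF elements are bound by Atf4 and its partners. A promoter was given for 54 of the 74 genes, and 36 of these held at least 1 of the 5 motifs. AAGATGGC was found in 13 of 54 (24.1%) against 3.44% of all 27457 promoters, CCGGAAGT in 11.1% against 4.01%, and GCATGCGC in 9.26% against 2.66%. CCAAT was in 46.3% against 37.7%, and TGATGNAA in 3.70% against 3.82%. The promoters of the family were richer in G and C, with a median of 56.0% against 52.3%.

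Among the 12 promoters of genes with lower levels at an adjusted p of at most 0.05, AAGATGGC was found in 2, CCGGAAGT in 2, CCAAT in 5 and GCATGCGC in 0. Among the 41 of genes that were not called, it was 10, 4, 20 and 5. In the sequences printed above, Mrpl49 holds AAGATGGC 16 bases after the start site and CCAAT on the opposite strand at 2 places, and Mrpl18 and Mrps16 each hold CCAAT once on the opposite strand. Mrps6 holds AAGATGGC at its start site, overlapping by 1 base with a C/EBP-ATF element on the opposite strand, and Mrpl12 holds none of the 5. These matches describe letters in the sequence, and binding was not measured.

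Further genes of the large subunit were lower with LPS/siponimod. Mrpl14 lies at the interface to the small subunit and was at 7.80, 8.36 and 8.52 CPM with LPS and at 3.74, 4.59 and 3.24 CPM with LPS/siponimod. Its log2 FC of -1.09 (SE 0.20, adjusted p = 0.0141, edgeR quasi-likelihood test) corresponded to 0.469 of the LPS level. Mrpl20 decreased from 46.1 ± 3.98 to 28.8 ± 3.25 CPM (log2 FC -0.68, adjusted p = 0.0170) and Mrpl13 from 27.4 ± 0.841 to 18.9 ± 0.630 CPM (log2 FC -0.54, adjusted p = 0.0177). The change of Mrpl13 was under 1.5-fold. The 3 have counterparts in bacteria. Mrpl16, which also has one and lies close to the tRNA sites, was at 7.93, 8.33 and 7.58 CPM with LPS and at 2.84, 4.86 and 4.53 CPM with LPS/siponimod (log2 FC -0.96, SE 0.25, adjusted p = 0.0336).

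The largest decrease was measured for Mrpl42_1, a mitochondria-specific gene, at 23.2, 26.5 and 15.3 CPM with LPS and 6.26, 10.9 and 6.36 CPM with LPS/siponimod. LPS replicate 3 was the lowest of its LPS values, which did not reach the LPS/siponimod values (log2 FC -1.47, SE 0.31, adjusted p = 0.0208, edgeR quasi-likelihood test). Mrpl48, another mitochondria-specific gene, decreased from 14.2 ± 1.5 to 8.77 ± 1.57 CPM (log2 FC -0.69, adjusted p = 0.0396). Mrpl44 was at 17.2, 17.6 and 9.92 CPM with LPS and at 8.87, 10.2 and 7.65 CPM with LPS/siponimod. Here LPS replicate 3 fell among the LPS/siponimod libraries, and the gene did not pass the test without the replicate block (log2 FC -0.74, adjusted p = 0.0759 without and 0.0315 with the block).

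In the small subunit, Mrps21 was at 20.3, 24.97 and 25.3 CPM with LPS and at 11.6, 12.4 and 14.5 CPM with LPS/siponimod. It has a bacterial counterpart, and its groups did not overlap (log2 FC -0.87, SE 0.16, adjusted p = 0.0141, edgeR quasi-likelihood test). Mrps15 decreased from 16.8 ± 2.2 to 9.73 ± 1.23 CPM (log2 FC -0.79, adjusted p = 0.0229) and Mrps11 from 14.1 ± 1.26 to 8.91 ± 0.559 CPM (log2 FC -0.66, adjusted p = 0.0232). Mrps25, the only mitochondria-specific gene among the 7 small subunit genes that were lower, decreased from 16.4 ± 2.48 to 10.1 ± 0.975 CPM (log2 FC -0.70, adjusted p = 0.0292). Mrps14 decreased from 18.3 ± 1.82 to 12.3 ± 0.837 CPM (log2 FC -0.57, adjusted p = 0.0302), less than 1.5-fold. Mrps15, Mrps11, Mrps14, Mrps25 and Mrpl48 were named after their values had been seen, to account for every gene called.

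**Figure D2:**
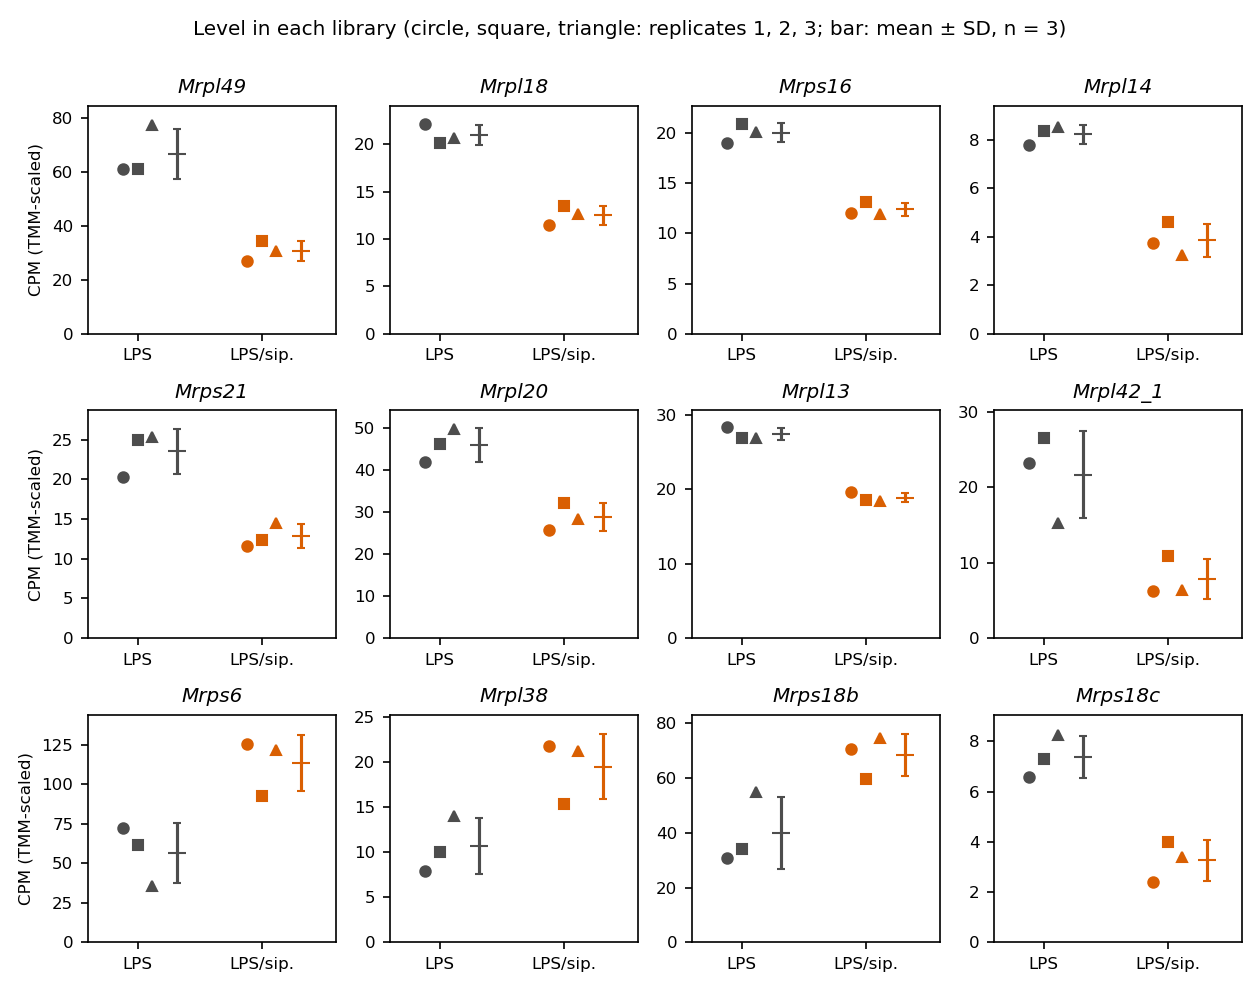
Level in CPM (y axis, TMM-scaled, from 0) of 12 mitochondrial ribosomal protein genes in each library, with LPS in grey and LPS/siponimod (LPS/sip.) in orange. Circles, squares and triangles are replicates 1, 2 and 3, and bars give mean ± SD (n = 3). The conditions do not overlap for any of the 12 genes, of which Mrps6, Mrpl38 and Mrps18b are higher and the other 9 lower with LPS/siponimod.

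Both genes that rose were called with a small margin. Mrps6, a small subunit protein with a bacterial counterpart, was at 72.7, 61.6 and 35.8 CPM with LPS and at 125, 92.9 and 122 CPM with LPS/siponimod. Its lowest LPS/siponimod value lay above its highest LPS value, LPS replicate 3 was the lowest of all, and the log2 FC was 1.00 (SE 0.28, adjusted p = 0.0422, edgeR quasi-likelihood test, and at most 0.1496 with 1 library left out). In the gene table of RefSeq GRCr8, Slc5a3, which encodes a myo-inositol transporter, overlaps Mrps6 on the same strand. Slc5a3 had 1477, 1239 and 593 counts in LPS cells, against 10780, 9187 and 15937 in LPS/siponimod cells (log2 FC 3.23, SE 0.43, adjusted p = 0.00751). How reads in the overlap were assigned is not stated, so that the value of Mrps6 is uncertain and the part of Slc5a3 in it was not tested.

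Mrpl38, a mitochondria-specific protein of the central protuberance, was at 7.96, 10.0 and 14.0 CPM with LPS and at 21.8, 15.4 and 21.3 CPM with LPS/siponimod. The highest LPS value came close to the lowest LPS/siponimod value, and the log2 FC was 0.87 (SE 0.26, adjusted p = 0.0497, edgeR quasi-likelihood test). Scaling by the RLE method gave an adjusted p of 0.0503, and keeping all genes in the test 0.0623. Mrpl2, a protein next to the catalytic centre of the large subunit, was at 13.5, 11.8 and 9.60 CPM with LPS and at 16.8, 16.6 and 16.0 CPM with LPS/siponimod. Its groups did not overlap, but it did not pass the test without the block (log2 FC 0.50, adjusted p = 0.0646 without and 0.0496 with the block). Mrps17, the gene with the lowest counts of those tested, had 38, 34 and 26 counts in LPS cells, against 56, 79 and 56 in LPS/siponimod cells (log2 FC 0.73, SE 0.32, adjusted p = 0.130).

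Mammals have 3 genes related to the bacterial protein S18, and their log2 FCs differed in sign. In the counts by descent, Mrps18c was classed as shared with bacteria, and Mrps18a and Mrps18b as specific to mitochondria. Mrps18c was at 6.58, 7.29 and 8.26 CPM with LPS and at 2.39, 4.01 and 3.41 CPM with LPS/siponimod, without overlap (log2 FC -1.17, SE 0.25, adjusted p = 0.0211, edgeR quasi-likelihood test). Mrps18b was at 30.7, 34.1 and 54.9 CPM with LPS and at 70.6, 59.5 and 74.4 CPM with LPS/siponimod, in the other direction. All LPS/siponimod libraries were above LPS, with LPS replicate 3 nearest to them, and the difference did not pass the test without the block (log2 FC 0.77, adjusted p = 0.0567 without and 0.0233 with the block). Mrps18a, whose product sits in the large subunit, had overlapping groups (25.4 ± 3.76 against 30.6 ± 2.77 CPM, log2 FC 0.27, adjusted p = 0.214). The ratio of Mrps18b to Mrps18c CPM was 4.66, 4.68 and 6.65 in LPS cells, against 29.6, 14.9 and 21.8 in LPS/siponimod cells. Every LPS/siponimod ratio was above every LPS ratio. It was formed after the values had been seen and is given without a test.

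The genes chosen for their role rather than their value mostly did not pass the test. Mrpl12 and Mrpl10 form the stalk that recruits translation factors, and mrpl11 lies at its base. Mrpl12 had nearly equal means (26.97 ± 3.89 with LPS, 26.6 ± 1.71 CPM with LPS/siponimod, log2 FC -0.02, adjusted p = 0.928). Mrpl10 was at 35.9, 38.2 and 37.4 CPM with LPS and at 30.2, 31.8 and 26.1 CPM with LPS/siponimod, without overlap. Its log2 FC of -0.34 missed the threshold in edgeR's quasi-likelihood test (adjusted p = 0.0741) and passed it with DESeq2 (adjusted p = 0.0330). For mrpl11 the levels were 13.5, 16.5 and 16.6 CPM with LPS and 10.8, 11.6 and 10.8 CPM with LPS/siponimod. This gene lay at the border of the test (log2 FC -0.49, adjusted p = 0.0501 without and 0.0492 with the block).

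Mrps12, a protein of the decoding centre, was at 14.8 ± 0.617 CPM with LPS and 11.9 ± 0.736 CPM with LPS/siponimod, without overlap (log2 FC -0.31, SE 0.13, adjusted p = 0.119). Mrpl58, which releases stalled peptides from the ribosome, was at 16.3 ± 1.22 and 13.7 ± 0.850 CPM (log2 FC -0.25, adjusted p = 0.191). Mrps27, an RNA-binding protein of the small subunit, and Mrps30 had overlapping groups (log2 FC -0.11 and -0.15, adjusted p = 0.711 and 0.439). Mrpl17, the gene with the highest mean count of the family, was at 91.7, 103 and 126 CPM with LPS and at 94.8, 93.7 and 83.4 CPM with LPS/siponimod. These ranges overlap (log2 FC -0.24, adjusted p = 0.271). Mrps36 of the 2-oxoglutarate dehydrogenase complex was at 11.4 ± 0.889 and 8.47 ± 0.523 CPM, without overlap (log2 FC -0.43, adjusted p = 0.0715). Leaving Mrps36 out changed no count of calls in this fit and moved the median from -0.22 to -0.21, whereas with DESeq2 the genes lower at any fold numbered 21 with it and 20 without it.

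Some of these genes share their start region or overlap with another gene in the GRCr8 table, where 68 of the 74 were found. A gene on the opposite strand with its start site within 1000 bases was listed for 16, and 16 overlapped a protein-coding gene. Mrpl49 starts next to Fau, a gene of the cytosolic ribosome, which had a log2 FC of 0.07 (adjusted p = 0.679) while Mrpl49 decreased. Its other neighbour, the overlapping Syvn1 on the opposite strand, was higher (log2 FC 0.71, adjusted p = 0.0126). Mrps11 and Mrpl46, which start next to each other, had log2 FCs of -0.66 and -0.27, of which the second did not pass the test (adjusted p = 0.248). Mrpl18 starts next to Tcp1, a subunit of the cytosolic chaperonin (log2 FC -0.23, adjusted p = 0.601), and Mrps18c next to the helicase gene Helq (-0.99, adjusted p = 0.116). Genes overlapping other lower members on the opposite strand did not pass the test, with Tmem63b at -0.14 for Mrpl14 (adjusted p = 0.479), Stx3 at 0.43 for Mrpl16 (adjusted p = 0.0629) and Rab6a at 0.20 for Mrpl48 (adjusted p = 0.300).

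Over all members, the neighbour was tested in 29 such pairs and was past the adjusted p in 4 with a lower and in 6 with a higher level, against 13.2% and 15.3% of all genes. Mrps11 and Mrpl46 are counted from both sides. Mrps11, itself a called member, is thus among the lower neighbours, here and in the next count. In the 17 pairs whose Mrpl or Mrps gene was within 1.25-fold of no change, 4 neighbours were lower, 4 were higher and 9 did not pass the test. Among the latter were Gemin5 beside Mrpl22 (log2 FC -0.03, adjusted p = 0.882) and Guk1 beside Mrpl55 (-0.02, adjusted p = 0.877). Mrpl41 had a log2 FC of -0.07 beside Pnpla7 with 2.82 (adjusted p = 0.0165), and Mrpl43 one of 0.02 beside the overlapping Twnk, the mitochondrial DNA helicase gene, with 0.89 (adjusted p = 0.0188, edgeR quasi-likelihood test). Mrpl51 was at 0.00 beside Ncapd2 with 1.05 (adjusted p = 0.0122), and Mrpl47 at -0.08 beside the overlapping Ndufb5, a gene of respiratory complex I, with -0.86 (adjusted p = 0.0134) and Actl6a with 0.02 (adjusted p = 0.920). Whether strand was used in counting is not stated, and reads from overlapping genes cannot be told apart here.

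Subunits of the mitoribosome without an Mrpl or Mrps name were mostly near 0, with 1 of 5 called, a number too small to set against the 11.7% lower and 13.6% higher of all genes. Dap3, a GTP-binding protein of the small subunit, had 1431, 1404 and 1474 counts in LPS cells, against 923, 1055 and 882 in LPS/siponimod cells. The groups were clearly apart, at 38.2 ± 1.63 and 21.7 ± 1.89 CPM (log2 FC -0.82, SE 0.12, adjusted p = 0.00834, edgeR quasi-likelihood test), and the adjusted p stayed at or under 0.0465 with any 1 library left out. Chchd1 (log2 FC -0.18, adjusted p = 0.333), Gadd45gip1 (-0.09, 0.621), Ptcd3 (0.10, 0.711) and Aurkaip1 (0.14, 0.377) did not pass the test.

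Of 23 genes for assembly of the mitoribosome and modification of its RNA, 2 were DEGs with higher and 1 with lower levels (8.70% and 4.35%, both under the 13.6% and 11.7% of all genes, median log2 FC -0.10). Ngrn, needed for the stability of the large mitochondrial rRNA, had 423, 394 and 411 counts in LPS cells, against 1328, 976 and 1089 in LPS/siponimod cells. Its increase from 10.9 ± 0.609 to 25.7 ± 3.44 CPM (log2 FC 1.24, SE 0.15, adjusted p = 0.00684, edgeR quasi-likelihood test) ran against the direction of most ribosomal protein genes. Ddx28, an RNA helicase of large subunit assembly, increased from 8.27 ± 0.608 to 13.7 ± 0.659 CPM (log2 FC 0.73, adjusted p = 0.0161). Rbfa, a maturation factor of the small subunit, decreased from 13.5 ± 2.47 to 8.33 ± 0.356 CPM (log2 FC -0.70, adjusted p = 0.0351). Without LPS replicate 2, LPS/siponimod replicate 1 or LPS/siponimod replicate 3, 1 gene of the list was a DEG, and without LPS replicate 3, 5 were. Ngrn stayed at or under an adjusted p of 0.0432 in these fits.

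None of 16 mitochondrial translation factors (initiation, elongation, release and related factors) was called in edgeR's quasi-likelihood test, with 3 lower and 1 higher at an unadjusted p under 0.05. With DESeq2, 2 were lower past the adjusted p and 0 were DEGs, and limma-voom and the likelihood ratio test called 0. Without LPS replicate 3, and without both replicates numbered 3, 1 was a DEG with a higher level. Their median log2 FC was -0.18 and thus near that of the ribosomal proteins. Cytosolic ribosomal proteins, of which 54 of 79 written symbols were in the tables, had a median of 0.07, with 36 of 54 above 0. With 1 lower and 4 higher at an unadjusted p under 0.05, 0 were DEGs in edgeR's quasi-likelihood test and 0 with DESeq2. Rplp1 of the cytosolic stalk was past the adjusted p, at 419 ± 41.9 CPM with LPS and 604 ± 33.4 CPM with LPS/siponimod (log2 FC 0.53, adjusted p = 0.0412, 0.0502 with the block). Without LPS replicate 1, the list had 1 DEG and its median turned to -0.04, and without LPS replicate 3 it had 3 DEGs and a median of 0.17.

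**Figure D3:**
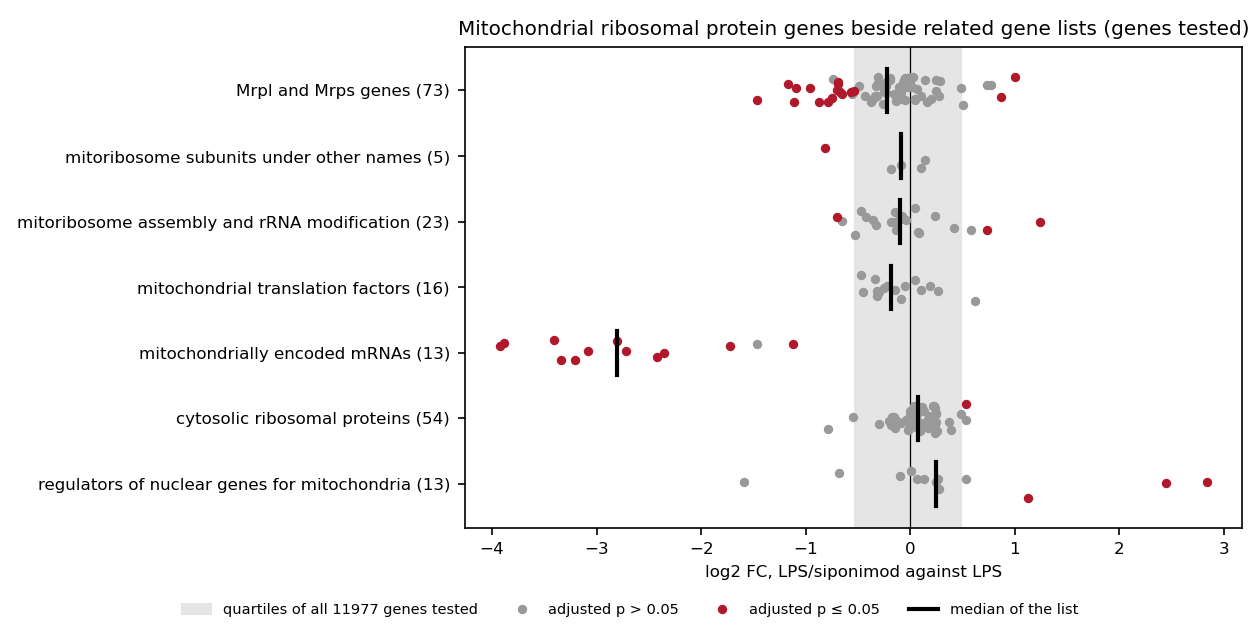
Log2 FC of LPS/siponimod against LPS (x axis) of single genes (points) in each list (y axis, number of genes tested in brackets). Red points have an adjusted p of at most 0.05, black bars are list medians, and the grey band spans the quartiles of all 11977 genes, from -0.53 to 0.49. The mitochondrially encoded mRNAs lie far left of the other lists, with a median of -2.80.

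The mRNAs that the mitoribosome translates had a median log2 FC of -2.80, against -0.22 for the mRNAs of its proteins, a difference that was not tested. All 13 mitochondrially encoded mRNAs had a log2 FC below 0, from -3.92 (Mt-nd3) to -1.12 (Mt-co1), and 12 were DEGs with lower levels. Their share of all counts was 1.54%, 1.39% and 1.41% in LPS cells, against 0.313%, 0.610% and 0.568% in LPS/siponimod cells. The conditions were far apart, with LPS/siponimod replicate 1 the lowest. Mt-cyb, the cytochrome b of complex III, had 49491, 47106 and 39980 counts in LPS cells, against 2819, 8235 and 7593 in LPS/siponimod cells (log2 FC -3.08, SE 0.46, adjusted p = 0.00932, edgeR quasi-likelihood test). Mt-co1, a catalytic subunit of complex IV and the most counted of the 13, was at 8233 ± 1500 and 3780 ± 1025 CPM (log2 FC -1.12, SE 0.29, adjusted p = 0.0351). Mt-nd6, the exception, was not called in this test (log2 FC -1.46, adjusted p = 0.0596, and 0.0400 with the block). It passed with DESeq2 (adjusted p = 0.00772), limma-voom (0.0491) and the likelihood ratio test (0.0112), and all 13 mRNAs were DEGs in these fits.

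Of the others, Mt-nd4l (log2 FC -3.88, adjusted p = 0.00791), Mt-atp8 (-3.21, 0.00824), Mt-nd4 (-3.41, 0.00989), Mt-nd3 (-3.92, 0.0112), Mt-co3 (-2.36, 0.0131), Mt-nd1 (-2.80, 0.0136), Mt-nd2 (-2.72, 0.0146), Mt-co2 (-3.34, 0.0211), Mt-atp6 (-2.42, 0.0293) and Mt-nd5 (-1.72, 0.0354) encode subunits of complexes I and IV and of the ATP synthase. The number of DEGs among the 13 was 5 without LPS replicate 2, 8 without LPS replicate 1 and 10 or 11 without any other single library. The libraries were made by capture of polyadenylated mRNA, so that these values concern the mRNA caught that way.

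**Figure D4:**
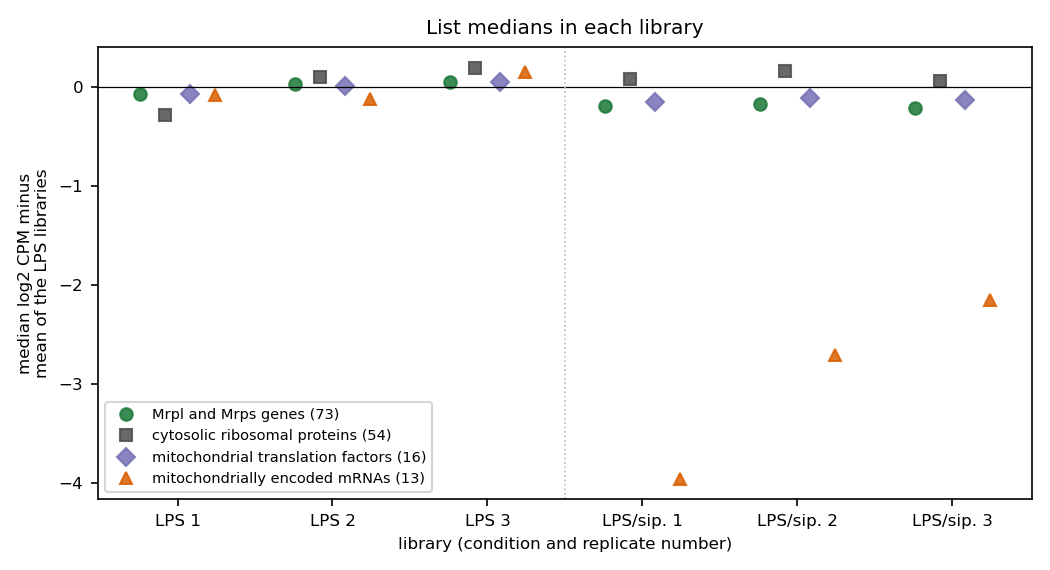
Median over each list of log2 CPM minus the mean log2 CPM of the 3 LPS libraries (y axis) in each library (x axis, LPS/sip. for LPS/siponimod, with replicate numbers). The Mrpl and Mrps genes (circles) lie between -0.22 and -0.18 in all 3 LPS/siponimod libraries and between -0.07 and 0.04 with LPS, whereas the mitochondrially encoded mRNAs (triangles) lie between -3.95 and -2.15 with LPS/siponimod.

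Relative to the mean of the LPS libraries, the median of the ribosomal protein genes was -0.07, 0.03 and 0.04 in LPS cells, against -0.20, -0.18 and -0.22 in LPS/siponimod cells, on the log2 scale. That of the mitochondrially encoded mRNAs was -0.09, -0.12 and 0.15 in LPS cells, against -3.95, -2.71 and -2.15 in LPS/siponimod cells. The order of the LPS/siponimod libraries in the latter did not recur in the former, where the 3 libraries were nearly equal.

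Regulators known for the nuclear genes of mitochondrial proteins were described last, with 3 of 13 tested called, all higher (23.1%, against 13.6% of all genes higher and 11.7% lower). Without LPS replicate 3, and also without both replicates numbered 3, 4 were higher and 1 was lower. Without LPS replicate 1, LPS replicate 2, LPS/siponimod replicate 1 or LPS/siponimod replicate 3, 2 were called. Atf5, a transcription factor of the mitochondrial stress response, increased from 13.7 ± 1.31 to 97.7 ± 8.498 CPM (log2 FC 2.83, SE 0.13, adjusted p = 0.00174, edgeR quasi-likelihood test), and Atf4 of the integrated stress response had a log2 FC of 2.44. Gabpb1, the partner of Gabpa, increased from 19.9 ± 6.81 to 43.3 ± 4.24 CPM (log2 FC 1.12, adjusted p = 0.0248, and up to 0.0884 with 1 library left out), whereas Gabpa, the DNA-binding partner, was at 41.9 ± 2.70 and 42.0 ± 2.34 CPM (log2 FC 0.00, adjusted p = 0.987). Nrf1 (log2 FC 0.25, adjusted p = 0.152), Yy1 (0.28, 0.0932), Esrra (-0.68, 0.0707) and Myc (-0.10, 0.924) did not pass the test. Ppargc1b, a coactivator of mitochondrial genes, had 124, 99 and 26 counts in LPS cells, against 35, 48 and 15 in LPS/siponimod cells. Its groups overlapped through LPS replicate 3, and it did not pass the test without the block (log2 FC -1.59, adjusted p = 0.122 without and 0.0309 with the block). Ppargc1a had 0 counts in the LPS libraries and 2, 0 and 1 with LPS/siponimod, under the floor of 3 counts per library, and was not tested. Nrf1, Yy1, Gabpa, Esrra, Myc, Ppargc1a and Ppargc1b were named after their values had been seen.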

How the data were processed

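Microglial mRNA of 6 libraries, 3 for LPS and 3 for LPS/siponimod, was measured by single-end sequencing. The authors trimmed reads, mapped them to the rat genome (build mRatBN7.2, demultiplexed with bcl2fastq 2.20.0.422, per the submitters' processing notes) and deposited total read counts per gene without normalization. The handling of strand and of reads matching several genes is not given in the sources used here. Harvest times are stated for the other assays of the same stimulation, and which of them applied to sequencing is not stated. In 1 table, 1 row without a name and value was left out.

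Counts were analysed in R 4.3.3 with edgeR 4.0.16 (filterByExpr, minimum count 10 and total 15; TMM; quasi-likelihood test; Benjamini-Hochberg adjustment over 11977 genes). CPM are TMM-scaled, and SE is the size of the log2 FC divided by the square root of the F statistic. For single genes, 3 against 3 libraries allow no exact permutation p below 0.1, so adjusted p-values also rest on the spread edgeR estimates over all genes. Floors (3 counts) cover counting error only. The procedure was tested on simulated data.

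Alternatives were RLE, DESeq2 1.42.0, limma-voom (limma 3.58.1), the likelihood ratio test, no filter, a mean of at least 1 CPM, the replicate block and each library left out. A fit without both replicates numbered 3 was added after the data were seen. After centring on group means, same-numbered libraries correlated over genes at 0.42, 0.545 and 0.611 and differently numbered ones at -0.534 to 0.086. Because of the centring, positive values among the former push the latter down, so that the latter are no separate support. Replicate numbers were taken to pair libraries, which rests on these correlations, since the study does not state it.

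The members and lists were chosen with earlier results of these data known. Genes named are the 8 called with the smallest p in each direction, the 5 with the largest log2 FC in each direction, the 3 with the highest and the 3 with the lowest counts, those chosen by role, and in other lists up to 3 called per direction, all subunits under other names and all mitochondrially encoded mRNAs. Markers and neighbouring genes were named after their values were seen. Promoters and neighbours come from RefSeq tables of GRCr8, another build than that of the counts.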

Additional observations from a re-analysis of the deposited data

How the results depend on the processing

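All 17 called Mrpl and Mrps genes kept their direction in the 13 alternatives. The number of DEGs with lower levels stayed between 12 and 14, against 13, outside the fits with libraries left out. The number with higher levels, 2, was 1 with RLE, 0 with no filter and 3 with DESeq2, limma-voom, the likelihood ratio test and the replicate block. At any fold, the 2 higher genes became 1 with RLE, 4 with DESeq2, 0 with no filter and 4 with the replicate block, and the 5 mitochondria-specific DEGs became 4 with RLE, 3 with no filter, 6 with limma-voom and the likelihood ratio test and 7 with DESeq2 and the block. Among the Mrpl and Mrps genes, the block changed no call other than those of mrpl11, Mrpl44, Mrps18b and Mrpl2. With DESeq2, 21 of these genes passed the adjusted p as lower and 4 as higher. Among the lower were mrpl11, Mrpl44, Mrpl10 and Mrps36, and among the higher Mrps18b and Mrpl2. The family's median log2 FC lay between -0.24 and -0.11 in all alternatives.

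With 1 library left out in turn, DEGs ranged from 182 to 1772 lower and from 469 to 1941 higher over all genes, and from 1 to 14 lower and 0 to 4 higher in the family (1 to 18 and 0 to 4 at any fold). They ranged from 1 to 10 in the large and 0 to 8 in the small subunit, from 0 to 12 among genes shared with bacteria and from 1 to 6 among mitochondria-specific ones. In the other lists the ranges were 0 to 3 (cytosolic ribosomal proteins), 0 to 1 (translation factors), 5 to 11 (mitochondrially encoded), 1 to 5 (assembly) and 2 to 5 (regulators). In the same fits, the log2 FC of genes near 0 changed sign, ranging from -0.25 to 0.0011 for Mrps27 (0.0011 without LPS replicate 3), from -0.108 to 0.0853 for Mrpl12 (0.0853 without LPS replicate 3, 0.0059 without LPS replicate 2, 0.0259 without LPS/siponimod replicate 2) and from -0.0521 to 0.269 for Ptcd3 (-0.0521 without LPS/siponimod replicate 1). The cause of these changes was not tested.

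Depth limits the genes with few counts, such as Mrps17 with 26 to 79 counts per library.

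Added after the data were seen, restricting the family to names with a capital initial left 13 lower and 2 higher DEGs with a median of -0.23. Without both replicates numbered 3, also added then, DEGs in the family were 7 lower and 1 higher (the same at any fold), 5 in the large and 3 in the small subunit, 4 among genes shared with bacteria, 1 among translation factors and 5 among regulators, and the log2 FC of Mrpl12 was 0.056. With library totals in place of TMM, also added then, the ratio of summed levels (LPS/siponimod over LPS) was 0.972 against 0.922 for the family, 0.914 against 0.867 for the large and 1.115 against 1.057 for the small subunit.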
